A study of Mus musculus with 6 samples.

Results

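Collagens, laminins and other structural genes of the extracellular matrix were examined in cells sorted from the ventral mesencephalon of mice at embryonic day 12.5, the region where midbrain dopaminergic neurons arise. The genes were taken by name, as every collagen chain and every laminin chain with a probe set on the array, plus Postn, Fn1, Lum, Dcn, Sparc, Nid1, Nid2, Bgn, Fbn1 and Fbn2. They comprised 119 of 45037 probe sets, which named 61 of 18201 genes, with 42 collagen genes, 10 laminin genes and 9 others. Fbn1 had no probe set with 1 gene symbol and was not analysed here.

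There were 2 groups of 3 arrays, described as biological replicates in the series' design text. The first group, called positive here, held GFP-positive cells of Ngn2-GFP mice on a CD1/129 background, whose GFP marks cells active for Neurog2 (Ngn2), a proneural gene. The second, called negative here, held GFP-negative cells of Lmx1a-GFP mice on a C57BL/6 background, whose GFP marks cells active for Lmx1a, a dopaminergic progenitor factor. The labels name the positive cells midbrain dopaminergic progenitors, and the design used the negative cells as a non-dopaminergic reference. Both reporters mark cells by gene activity and not by lineage, and the groups differed in strain, reporter line and gate together, so these effects cannot be told apart. Dopaminergic markers were checked against these labels. All 8 tested of 9 were above 0, with 4 higher in positive cells by limma at an adjusted p under 0.05. Over all genes tested, 47.6% were below 0 and 0.423% were higher at this threshold. By the filter described below, Lmx1a, Slc6a3 and Corin were tested through the positive arrays alone, so their direction followed largely from it. They do not count beside these shares, which leaves Th and Nr4a2 as the called markers. Lmx1a gave 78.7 to 170 in positive and 1.81 to 9.75 in negative cells (adjusted p = 0.00167), Th 118 to 214 and 1.44 to 12.2 (adjusted p = 0.00413), and Nr4a2 1779 to 3178 and 469 to 938 (adjusted p = 0.00930, past the threshold in 4 of the 6 fits that left out an array). The Lmx1a gate was applied to the negative cells and the Neurog2 gate to the positive cells. Each gate favoured the direction seen for its gene, so these genes do not check the labels. Neurog2 gave 500 to 706 in positive and 334 to 388 in negative cells and did not pass by limma (adjusted p = 0.155).

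The extracellular matrix is the protein network around cells. Basement membranes, the sheets under epithelia and around vessels, are built from laminin trimers of an alpha, a beta and a gamma chain and from a type IV collagen network, which nidogens bridge. Fibrillar collagens make up the rope-like fibres of connective tissue. In the embryonic brain, neuroepithelial cells contact a basement membrane at the pial surface, and vessels and meninges bring matrix-producing endothelial, mural and mesenchymal cells.

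Positive replicates 1 and 2 stood apart from the other 4 arrays in the hybridization spike-ins, control RNAs added to every sample. Their average signal was 2293 and 2352 there. Positive replicate 3 had 5018 and the negative arrays had 4254 to 6560. The split is referred to as the spike-in batch, and the comparison within its higher side is positive replicate 3 against the 3 negative arrays. Fitted as a block, the batch moved the adjusted p of the dopaminergic markers to 0.121 for Lmx1a, 0.176 for Th and 0.0139 for Nr4a2. Keeping dim probe sets in the test, without the block, moved it to 0.0656, 0.107 and 0.129. Median signal was 18.1 to 25.5 on the 6 arrays. Signals depend on how well each probe set binds, so levels of different genes are not compared. Values below are MAS5 signals, or log2 differences of positive minus negative cells each with its standard error (SE) from limma. Each group had n = 3, and so few arrays limit the precision.

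Many of the matrix genes were too dim to compare. A gene was tested if any of its probe sets read above the 40th percentile of all probe sets (10.2 to 15.8 by array) on at least 3 arrays. Of the 61 genes, 33 were tested (54.1%), against 66.2% of all genes. Of the 33, 22 exceeded this level on all 6 arrays and 11 on 3 to 5, and Col15a1 was tested through the negative arrays alone. Of the 28 untested genes, 16 stayed below this level on every array in every probe set and 12 exceeded it on 1 or 2 arrays. Of the typical genes of mesenchymal matrix, Col1a2, Postn and Fn1 exceeded this level on all 6 arrays. Others were among the dim ones. Lum, a small proteoglycan of connective tissue, gave 0.438 to 4.52 over the 6 arrays. Dcn, the related proteoglycan decorin, gave 0.966 to 14.4 over its probe sets. Col6a1 gave 0.593 to 10.6 and Col6a3 3.07 to 13.1. Col3a1, a fibrillar collagen of vessel walls and soft connective tissue, exceeded the level on 1 array, positive replicate 3, at 28.8. Lama4, the laminin alpha chain of endothelial basement membranes, gave 0.423 to 10.1.

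Most markers of vascular and mesenchymal cells were also too dim to test. Of 19 endothelial markers 5 were tested, and Pecam1, Cdh5, Kdr, Flt1, Tek and Cldn5 were not. Of 15 pericyte and mural markers 5 were tested, and Kcnj8, Abcc9 and Cspg4 were not. Of 18 mesenchymal and meningeal markers 4 were tested, and Twist1, Foxc1 and Foxc2 were not. None of these tested markers differed between groups at an adjusted p under 0.05. The summed signal of the endothelial list was 165 to 222 in positive and 123 to 189 in negative cells, that of the mural list 130 to 187 and 229 to 299, and that of the mesenchymal list 851 to 1642 and 551 to 1095. Most of the mesenchymal sum was Crabp2, at 776 to 1566 in positive and 450 to 1018 in negative cells. Notch3, at 26.3 to 43.4 and 64.8 to 131, made up much of the mural gap. These 2 sums therefore do not describe their lists as a whole. The endothelial sum includes 14 markers too dim to test, so it does not serve to compare the groups either. The matrix genes are therefore described by their names and not as the matrix of a vascular or mesenchymal cell type.

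**Figure D1:**
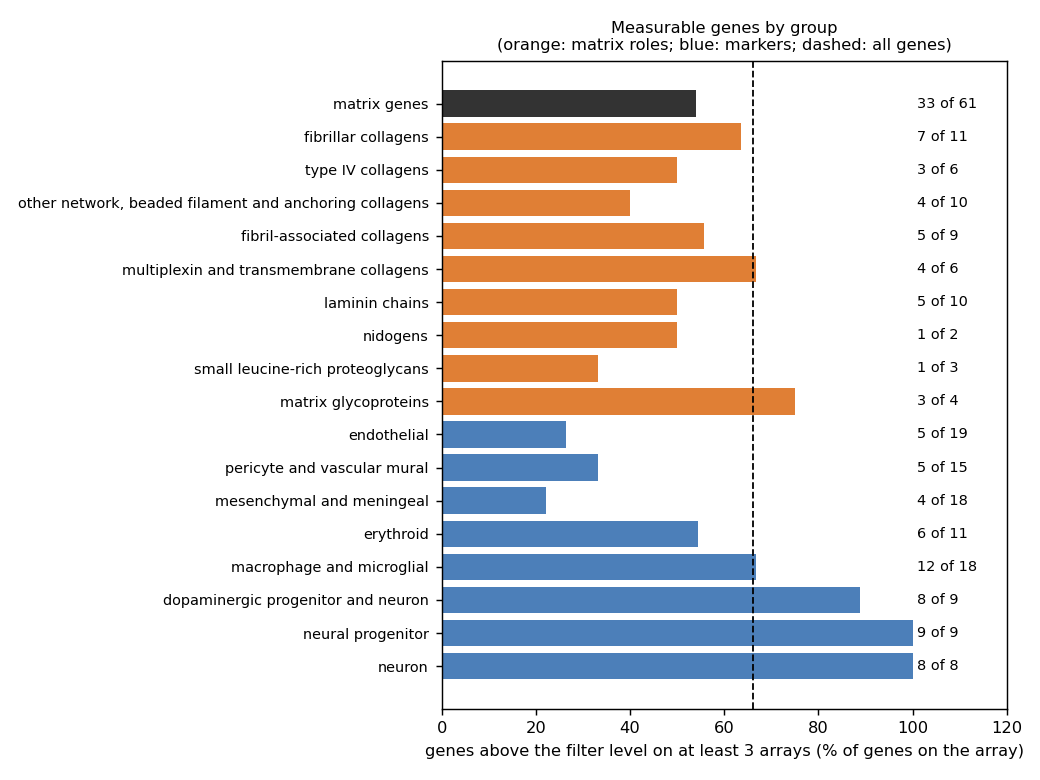
The horizontal axis gives the percentage of each list's genes on the array that exceeded the filter level on at least 3 arrays, with the counts at the right and the 66.2% of all genes as a dashed line. Of the matrix genes 33 of 61 were measurable, against 5 of 19 endothelial, 5 of 15 mural and 4 of 18 mesenchymal markers and 8 of 8 neuronal markers.

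Between the populations, 1 of the 33 tested matrix genes differed. Col8a1, a short-chain collagen of vascular and corneal basement membranes, was lower in positive cells by 5.47-fold, and no matrix gene was higher. Across all 12047 genes tested, 0.639% were lower and 0.423% higher at the same threshold (adjusted p under 0.05). At an unadjusted p under 0.05 by limma, 6 matrix genes were lower and 0 higher, where 5.08% of all genes were lower and 5.68% higher. These 6 were Col8a1, Sparc, Col5a2, Col22a1, Col5a1 and Col23a1. The groups did not overlap, with all negative arrays above all positive ones, for Col8a1, Sparc, Col5a2, Col22a1, Col5a1 and Col15a1, where 7.25% of all genes had this order. Col15a1 was tested through its negative arrays alone, so that its order followed from the filter and does not count beside the other 5 of 33. The opposite order held for 0 of 33, against 8.21%. Differences of more than 2-fold were lower for 7 of 33, against 3.41% of all genes, and higher for 1, Col4a2, against 4.02%. The median difference of the 33 genes was -0.09, beside 0.03 for all tested genes, and 21 of 33 were below 0, against 47.6%. Without the filter the median over all 61 genes was -0.14. It includes the 28 genes too dim to test, and a median over all genes without the filter was not taken.

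**Figure D2:**
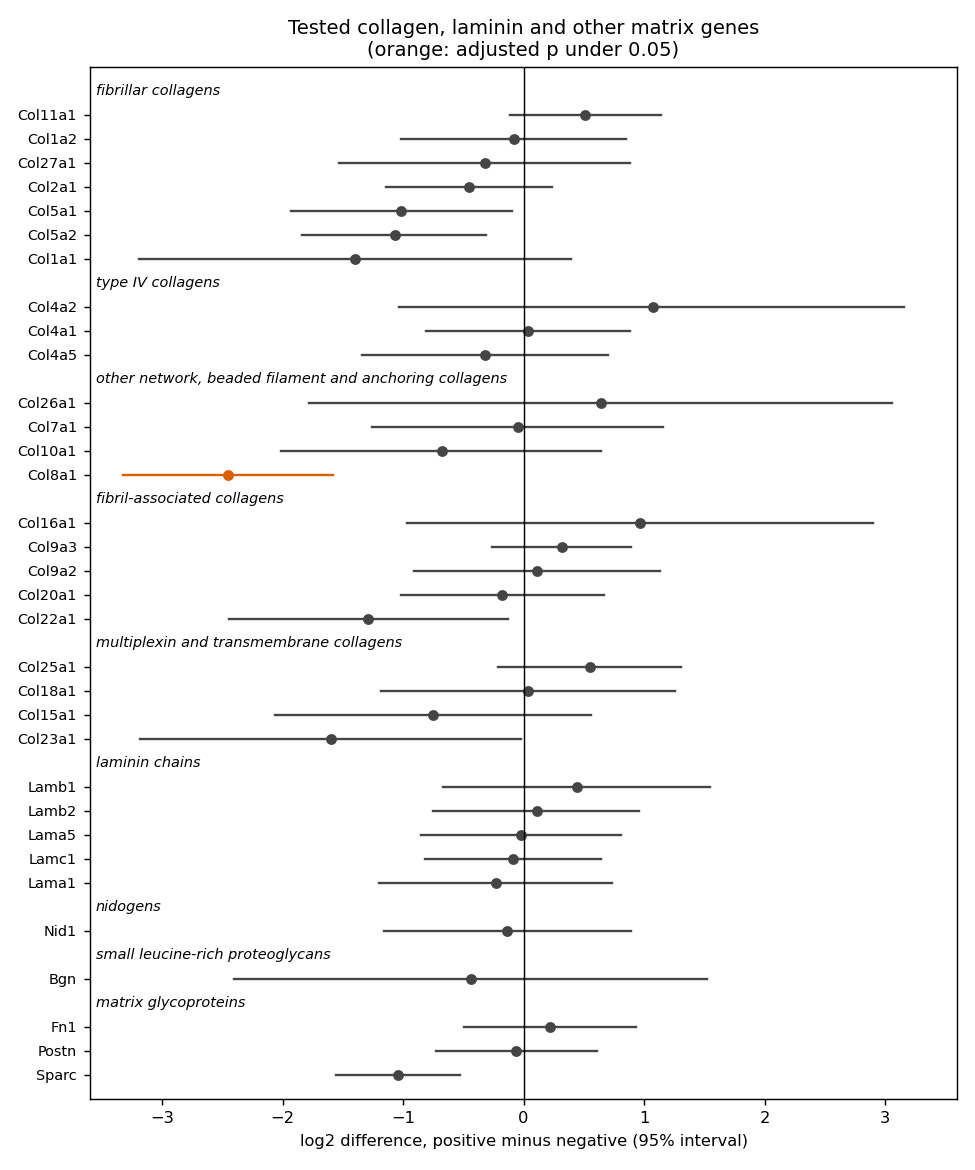
Each point is the log2 difference, positive minus negative, of 1 tested gene, with its 95% interval from limma, grouped by the role of the protein; orange marks an adjusted p under 0.05. Col8a1, at -2.45, is the 1 gene in orange, and the laminin chains lie between -0.23 and 0.44.

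The promoters of the called gene and of the gene next to it by p-value are shown because these are the members the comparison turns on. Each run is the 250 bases before the gene's start in RefSeq (GRCm38.p6), 5′ to 3′ on the gene's strand. Capitals mark matches, on either strand, to a GC box (GGGCGG), the motif bound by Sp1-type factors.
Col8a1, chr16:57754738-57754987, minus strand: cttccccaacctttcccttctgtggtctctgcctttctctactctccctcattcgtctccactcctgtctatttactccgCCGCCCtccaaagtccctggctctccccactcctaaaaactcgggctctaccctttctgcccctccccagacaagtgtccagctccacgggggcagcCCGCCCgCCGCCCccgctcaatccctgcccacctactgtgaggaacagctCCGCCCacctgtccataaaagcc
Sparc, chr11:55420081-55420330, minus strand: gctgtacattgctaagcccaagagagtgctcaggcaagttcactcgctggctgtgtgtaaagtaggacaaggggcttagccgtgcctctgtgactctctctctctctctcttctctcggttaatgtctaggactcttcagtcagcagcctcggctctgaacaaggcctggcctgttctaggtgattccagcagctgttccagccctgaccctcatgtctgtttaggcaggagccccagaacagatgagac
The Col8a1 window held 4 GC boxes, from 170 to 18 bases before the start, and had a GC content of 60.8%. The Sparc window held none and had a GC content of 54.0%. GC boxes were found in 32.7% of 32851 promoter windows of this length. Neither window held TATAAA (12.4% of windows), CCAAT (33.8%) or the AP-1 motif TGANTCA (6.75%), searched on both strands; no motif overlapped another. These matches describe the sequence alone.

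Col8a1 was read by 3 tested probe sets. The brightest gave 15.5, 16.3 and 40.4 on positive replicates 1, 2 and 3 and 114, 120 and 122 on the negative replicates. All negative values lay above all positive ones and close to each other, while positive replicate 3 stood above the other two positive arrays. The difference was -2.45 (SE 0.40, 95% interval -3.32 to -1.58, adjusted p = 0.00930). The other probe sets gave 14.3, 17.0 and 15.1 against 43.5, 55.3 and 20.2, and 12.4, 16.8 and 9.73 against 28.7, 24.2 and 30.7. Neither of these overlapped between groups, and their smaller differences, -1.24 (SE 0.52) and -1.13 (SE 0.53), did not pass when each probe set was counted on its own (adjusted p = 0.441 and 0.507). When the spike-in batch was fitted as a block, so that positive replicate 3 alone stood for its group, the difference was -1.55 (SE 0.44) and did not pass (adjusted p = 0.336). Within the higher batch alone it was -1.55 (adjusted p = 0.404). It also missed the threshold without negative replicate 2 (-2.44, adjusted p = 0.0532) and without negative replicate 3 (-2.43, adjusted p = 0.0548), and passed without each other array, at adjusted p from 0.00176 to 0.0454. The call was also lost with no mean-variance trend (adjusted p = 0.0724), with its probe sets averaged (-1.61, adjusted p = 0.0662) and with no filter (adjusted p = 0.107).

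Sparc encodes a collagen-binding glycoprotein that is secreted by endothelial and many other cells. Its brightest probe set gave 325, 386 and 379 on positive and 621, 630 and 1065 on negative arrays. The groups did not overlap, and negative replicate 3 was well above the other negative arrays. The difference of -1.04 (SE 0.24, 95% interval -1.56 to -0.53) missed the threshold (adjusted p = 0.0658). It passed without positive replicate 3 (-1.07, adjusted p = 0.0474), where group and spike-in batch coincide. Within the higher spike-in batch it was -0.98 (adjusted p = 0.799). A second probe set gave 123, 126 and 100 on positive and 187, 116 and 372 on negative arrays, where negative replicate 2 fell within the positive range.

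**Figure D3:**
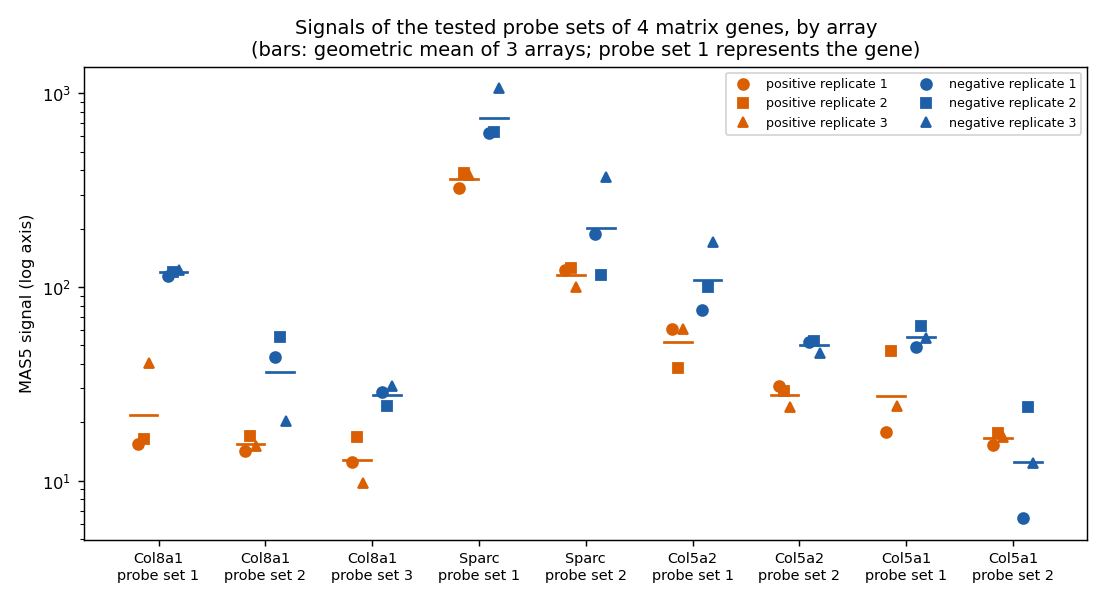
MAS5 signals on a log axis are shown for every tested probe set of Col8a1, Sparc, Col5a2 and Col5a1, with a symbol for each array and a bar at the geometric mean of each group. All 3 Col8a1 probe sets separate the groups, with positive replicate 3 at 40.4 in the brightest, whereas the second Col5a1 probe set does not.

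Fibrillar collagens had 7 tested genes of 11, with 6 below 0, against 47.6% of all genes. Their median was -0.45, and none passed the threshold. Col5a1 and Col5a2 encode the chains of type V collagen, which sets the diameter of collagen fibrils. Col5a2 gave 60.4, 38.1 and 60.4 on positive and 76.4, 99.5 and 170 on negative arrays, a difference of -1.07 (SE 0.35, adjusted p = 0.263), and the groups did not overlap. Its second probe set did not overlap either, at 24.1 to 30.7 and 45.4 to 52.8. Col5a1 gave 17.9, 46.6 and 24.4 against 49.1, 62.9 and 54.2, a difference of -1.02 (SE 0.42, adjusted p = 0.402). The groups did not overlap in this probe set, but a second one read 15.2 to 17.7 on positive arrays and 6.39 to 24.1 on negative arrays, a difference of 0.42. Col1a1, the main chain of bone and skin collagen, ranged from 2.22 to 19.8 in positive and 15.8 to 28.5 in negative cells, so the groups overlapped (-1.40, SE 0.83, adjusted p = 0.563). Without positive replicate 2 the difference was -0.52. A second Col1a1 probe set, too dim to be tested, gave 34.9, 12.0 and 11.5 on positive and 31.6, 11.5 and 7.44 on negative arrays, and with no filter the gene's difference was 0.28. Its partner chain Col1a2, named after its values were seen, gave 25.6 to 28.6 and 21.7 to 37.4, with a difference of -0.08 (SE 0.43).

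Col2a1, Col11a1 and Col9a3, known from cartilage matrix, exceeded the filter level on all 6 arrays. Col2a1, the main cartilage fibril collagen, gave 319, 321 and 150 on positive and 304, 264 and 489 on negative arrays, a difference of -0.45 (SE 0.32, adjusted p = 0.632). Positive replicate 3 was the lowest array and the groups overlapped. Col11a1, which is built into the same fibrils, gave 115, 124 and 83.0 against 89.7, 74.8 and 60.4, a difference of 0.51 (SE 0.29, adjusted p = 0.539), and its second probe set had the opposite sign (-0.44). Col9a3, a chain of the type IX collagen on the fibril surface, gave 165, 186 and 157 against 95.2, 150 and 174 (0.32, SE 0.27, adjusted p = 0.688). Its 95% interval, -0.26 to 0.89, lay within a 2-fold change either way. Col27a1 differed by -0.32 (SE 0.56).

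Type IV collagens form the network of all basement membranes. Col4a1, the chain found in nearly every basement membrane, gave 54.3, 97.4 and 86.1 on positive and 70.4, 46.0 and 130 on negative arrays. The groups overlapped fully, with a difference of 0.04 (SE 0.39, 95% interval -0.81 to 0.88). Col4a2, its partner in the same trimer, gave 34.4, 4.49 and 17.1 against 8.72, 2.31 and 14.3, and its difference of 1.07 had an SE of 0.97 (adjusted p = 0.714). Col4a5, a chain of a more restricted trimer, differed by -0.32 (SE 0.47). Col4a3, Col4a4 and Col4a6 were not tested.

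No laminin chain differed past the threshold. Of 10 laminin genes 5 were tested, with differences between -0.23 and 0.44 and a median of -0.02. Lamc1, the gamma chain shared by most laminins, gave 93.7, 72.1 and 83.8 on positive and 105, 52.7 and 122 on negative arrays, a difference of -0.09 (SE 0.34, 95% interval -0.82 to 0.64). Lama1, the alpha chain of the early embryonic laminin, gave 41.8, 41.9 and 17.2 against 33.9, 37.5 and 38.6. Positive replicate 3 was the lowest array, and the difference was -0.23 (SE 0.45). Lamb1, the beta chain of that laminin, gave 26.8, 45.3 and 27.1 against 16.0, 17.9 and 45.9, and the groups overlapped (0.44, SE 0.51). The intervals of Lama5, Lamb2 and Lamc1 lay within a 2-fold change either way. This held for 7 of the 33 matrix genes, the others being Col4a1, Col9a3, Fn1 and Postn, and for 47.6% of all genes. Nid1, which links laminin to type IV collagen, averaged 22.5 and 24.7 (-0.14, SE 0.47), and Nid2 was not tested.

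Among the fibril-associated collagens 5 of 9 genes were tested, with a median of 0.11 and none past the threshold. Col22a1, a collagen of tissue junctions, gave 9.68, 28.0 and 13.1 on positive and 33.1, 54.4 and 28.6 on negative arrays. The groups did not overlap, though positive replicate 2 lay close to the lowest negative array (-1.29, SE 0.53, adjusted p = 0.401). Its second probe set read 4.69 to 13.6 and 15.3 to 34.5, also without overlap. Col16a1, one of the 2 genes with the largest differences above 0, overlapped between groups (0.97, SE 0.89, adjusted p = 0.718). Col20a1 differed by -0.18 (SE 0.39) in its brightest probe set and by -2.14 (SE 1.04) and -0.99 (SE 0.81) in dimmer ones, each of which overlapped between groups.

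Of the multiplexin and transmembrane collagens 4 of 6 were tested and none passed. Col23a1, a transmembrane collagen, gave 13.8, 12.7 and 3.86 on positive and 54.7, 26.9 and 12.9 on negative arrays. It overlapped between groups, with negative replicate 3 within the positive range (-1.60, SE 0.73, adjusted p = 0.457). Col25a1, a transmembrane collagen of neurons, gave 87.4, 62.7 and 105 against 40.9, 52.4 and 86.0 and also overlapped (0.55, SE 0.35, adjusted p = 0.590). Col15a1, a multiplexin of vascular basement membranes, stayed below the filter level on all 3 positive arrays and was lower there by at least 1.34-fold, without passing (adjusted p = 0.674). Its negative mean was 1.34-fold the filter level of the positive arrays, a ratio that followed largely from testing it through the negative arrays alone. Among the remaining network and beaded filament genes, Col10a1 differed by -0.68 (SE 0.61) and Col26a1 by 0.64 (SE 1.12), and neither passed. Col26a1 had no settled sign, with -0.73 without negative replicate 3 and -0.91 under the batch block. That block also turned the sign of Bgn (0.48), Col4a5 (0.29), Col27a1 (0.13) and Nid1 (0.02). Col2a1 was -1.18 and Lama1 -1.09 under it.

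Of the matrix glycoproteins 3 of 4 were tested, with Sparc described above. Fn1, fibronectin, a ligand of integrins, gave 58.0, 52.3 and 73.8 on positive and 41.0, 54.6 and 63.4 on negative arrays (0.22, SE 0.33, 95% interval -0.49 to 0.93). Postn, periostin, a matrix protein of fibroblast-like cells, was chosen after its values were seen and gave 64.9, 94.1 and 92.1 against 75.8, 122 and 69.0 (-0.06, SE 0.31, 95% interval -0.73 to 0.61). For both genes the groups overlapped. Bgn, biglycan, was near the filter level at 2.58 to 14.5 and 5.39 to 16.2 (-0.44, SE 0.91), and Fbn2 was not tested.

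Array-to-array spread was wider for these genes than for genes at large. The median residual SD was 0.48 on the log2 scale for the 33 genes and 0.38 for all tested genes, and the median 95% interval of a matrix gene reached 0.96 to either side. Of 13 further tested probe sets, 9 had the sign of the gene's brightest and 4 the opposite, in Col11a1, Col18a1, Col5a1 and Lamc1.

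The machinery that makes and binds matrix was taken from lists of genes. Of 16 tested collagen processing genes 1 was higher and none lower, beside 0.423% and 0.639% of all genes, with a median of 0.16. Mia3, which loads procollagen into transport carriers, gave 627, 700 and 376 on positive and 243, 267 and 243 on negative arrays (1.13, SE 0.24, adjusted p = 0.0489). Within the higher spike-in batch it was 0.58 (adjusted p = 0.999), and it passed in 1 of the 6 fits that left out an array, the fit without positive replicate 3 (adjusted p = 0.00524; 0.133 to 0.308 in the others). It also missed with quantile scaling (0.0549), median centring (0.148), no trend (0.268), no filter (0.207), probe sets averaged (0.290) or probe sets counted singly (0.0686), all adjusted p. Of 13 tested matrix receptors 1 was lower and none higher, beside the same shares of all genes, with a median of -0.13. Itgb8, an integrin chain of neuroepithelial cells that activates TGF-beta, gave 62.2, 54.0 and 97.9 against 174, 261 and 190 (-1.57, SE 0.29, adjusted p = 0.0192). Within the higher batch it was -1.07 (adjusted p = 0.820). It passed without positive replicate 3 or negative replicate 1, and not without positive replicates 1 and 2 (adjusted p = 0.0816 and 0.111) or negative replicates 2 and 3 (0.114 and 0.0624), with no trend (0.131) or with no filter (0.125).

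The remaining lists had no gene past the threshold. Of 18 other matrix components the median was 0.00, with the proteoglycan Ncan at -0.48 (SE 0.23) and the basement membrane proteoglycan Agrn at -0.18 (SE 0.21). Quantile normalization gave 0.09 and 0.01 for this pair, averaged probe sets -0.22 and 0.08, and the batch block -0.21 and 0.05. Of 15 matrix proteinases and inhibitors the median was 0.32, with the metalloproteinase inhibitor Timp2 at 0.13 (SE 0.21) and Adamts10 at 0.60 (SE 0.38). Differences in this list ran from -1.42 to 2.10, with 5 below 0. The groups did not overlap for 3 higher genes and 1 lower one, beside 8.21% and 7.25% of all genes. That lower gene was tested through the negative arrays alone. Of 14 TGF-beta pathway genes 12 were below 0, against 47.6% of all genes, with a median of -0.32 beside 0.03. Tgfbr1 was at -0.25 (SE 0.23) and Smad4 at -0.36 (SE 0.21). Under the batch block these 2 genes were at 0.11 and -0.06, and with probe sets averaged at -0.13 and -0.04. Both stayed below 0 in the 6 fits that left out an array. Of the 12 genes below 0, Eng, Id1, Smad7 and Tgfb3 fell below the filter level on at least 1 array and had SEs of 0.66 to 1.20.

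Markers of blood cells and macrophages were lower in positive cells. The shares over all genes, for each count in this paragraph, were 0.639% lower and 47.6% below 0. Of 12 tested macrophage and microglial markers 6 were lower in positive cells and 11 were below 0. The summed signal of the 18 on the array was 123 to 152 on the positive side, against 899 to 1929 in negative cells. Laptm5 gave 8.41 to 16.6 and 294 to 638 (adjusted p = 6.69e-06), Ctss 3.01 to 6.15 and 124 to 378 (adjusted p = 5.98e-05), and Tyrobp 2.08 to 6.94 and 103 to 214 (adjusted p = 0.000276). All 6 tested of 11 erythroid genes were lower, with Hba-x, Hbb-y and Hbb-bh1 first by p-value and a summed signal of 330 to 639 against 7571 to 15081. Ctss, Tyrobp, Csf1r, Aif1 and Fcer1g, and the erythroid Hba-x, Hbb-bh1 and Ermap, were tested through the negative arrays alone. Their direction therefore followed largely from the filter, and they do not count beside these shares. The lower genes left were Laptm5 and C1qb among the macrophage markers and Hbb-y, Slc4a1 and Alas2 among the erythroid genes. Of 9 neural progenitor markers 2 were lower, Pax6 (-2.22, SE 0.34) and Fabp7 (-1.18, SE 0.26, past the threshold in 1 of the 6 fits that left out an array), with sums of 4945 to 7667 and 8849 to 10405. None of 8 neuronal markers passed, with Tubb3 at -0.30 and Dcx at -0.45. Quantile normalization gave 0.26 and 0.03 for this pair, and the batch block 0.26 and 0.10. Among the vascular and mesenchymal markers, Notch3 was at -1.51 (SE 0.36, adjusted p = 0.0852), Rgs5 at -0.03, Egfl7 at 0.63, Sox7 at -0.47, Crabp2 at 0.68 and Prrx1 at -0.94. The part of these cells in the values of Col8a1, Sparc and the other matrix genes was not tested, and in sorted bulk samples fewer cells of a type and less RNA per cell cannot be told apart.

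**Figure D4:**
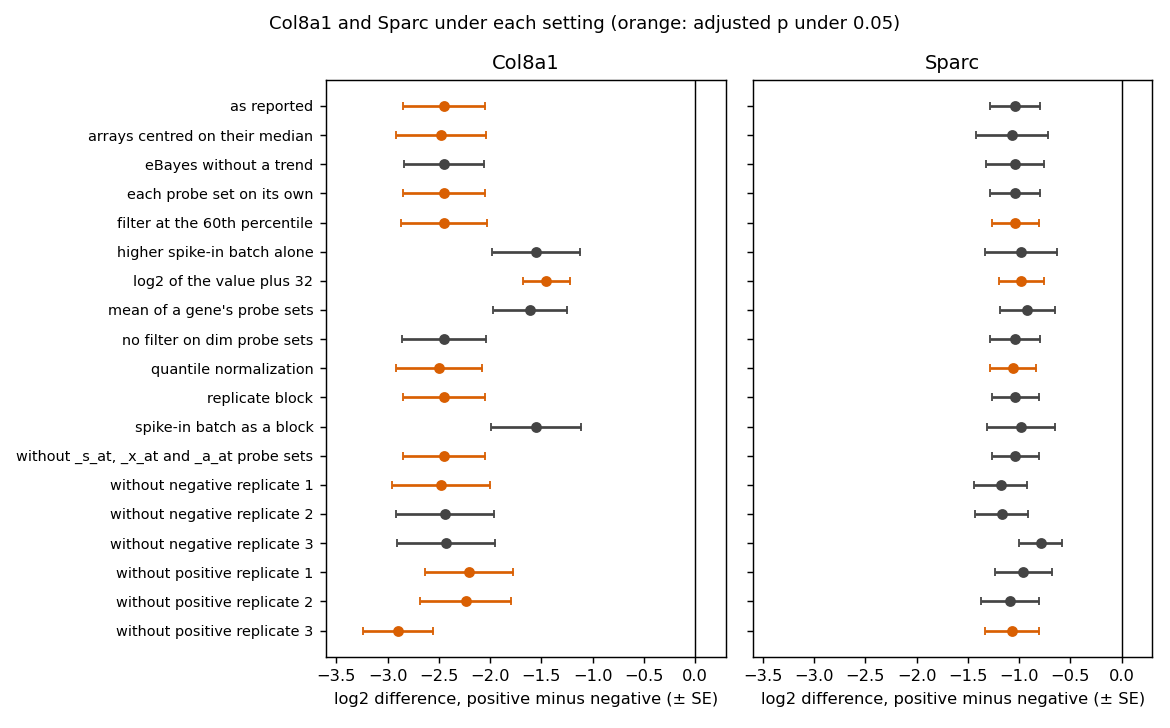
The log2 difference, positive minus negative, of Col8a1 and Sparc is shown with its SE under the reported setting and each alternative; orange marks an adjusted p under 0.05. Col8a1 ranges from -2.90 to -1.45 and Sparc from -1.18 to -0.79, and the largest shifts of Col8a1 come with the spike-in batch (-1.55), the offset of 32 (-1.45) and the mean of its probe sets (-1.61).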

How the data were processed

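Total RNA of sorted cells was labelled with biotin and hybridized to 1 array per sample, per the labels' protocols. The deposited table holds the intensity of 45101 probe sets on a linear scale. Per the submitters' processing notes, the authors derived these intensities with MAS5 and R 2.14.2, and limma is listed with no stated use; a genome build is not given in the sources used here. Every array had a 2% trimmed mean of 100, so total RNA content was not measured.

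After 64 controls were set aside, the platform annotation gave 1 symbol for 34957 of 45037 probe sets, several for 920 and none for 9160. Log2 values were floored at a signal of 1. For each gene the brightest tested probe set was used. The comparison used limma 3.58.1 under R 4.3.3 (lmFit, eBayes with trend, two-sided), with Benjamini-Hochberg adjustment over 12047 genes. The fit was tested on simulated data. Genes named were those past the threshold, then the smallest p-values up to 24, the brightest of each role and the 2 largest differences above 0; from each list, up to 3 genes past the threshold or else the 2 brightest. The genes and lists were chosen with earlier results of these data known. Sequences are from RefSeq. The 18 alternatives covered scaling, filter, offset, prior, probe set choice, blocks and left-out arrays. Figures used matplotlib 3.10.9.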

Additional observations from a re-analysis of the deposited data

How the results depend on the processing

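No matrix gene was higher in positive cells under any of the 18 alternatives, and Col8a1 and Sparc were the only ones lower. The count of lower genes, 1 as reported, was 0 in eBayes without a trend, with probe sets averaged per gene, with no filter, under the batch block and in the higher batch alone. It was 2 with quantile normalization, the 60th percentile filter and the offset of 32, and 0 to 2 without 1 array. The median difference, -0.09 as reported, was -0.21 with each probe set counted and -0.23 without _s_at, _x_at and _a_at probe sets, and ranged from -0.21 to -0.03 without 1 array. The cause of these changes was not tested. The batch block and the higher batch alone both compare positive replicate 3 with the negative arrays, so they are not separate checks. Over all genes, 51 higher and 77 lower became 15 and 27 in eBayes without a trend, 3 and 16 with no filter, 8 and 26 with the batch as a block, 6 and 34 in the higher batch alone, and 13 to 87 and 29 to 330 without 1 array.

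The replicate numbers did not pair the samples: deviations of same-numbered arrays correlated at 0.157, -0.082 and 0.059, and not every array correlated best with its own number. With the replicate block 1 matrix gene was lower and 0 higher, the median was -0.09, and over all genes 47 were higher and 80 lower. Signal near background limits the comparison of dim genes, and the ratio given for Col15a1 depends on the filter level.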

Other observations

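Among the matrix genes, 8 pairs lie next to each other on a chromosome with no protein-coding gene starting between them in the GRCm38 annotation. In 1 pair both genes were tested, Col4a1 (0.04) and Col4a2 (1.07), whose intervals overlapped widely. Col5a2, below 0 in both of its probe sets, lies beside Col3a1, which was too dim to test. The pair of Dcn and Lum, and those of Col6a1 with Col6a2 and of Col4a3 with Col4a4, held no tested gene.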
